A study of Cavia porcellus with 24 samples.

Results

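The hippocampal methylome of guinea pig offspring exposed before birth to betamethasone, a synthetic glucocorticoid (sGC), was compared with that of saline controls at every listed cytosine of a CpG that had at least 20 reads in both groups. Of the 2869370 cytosines listed for the hippocampus, 2609421 (90.9%) met this minimum, on 2066678 CpGs and 1415 scaffolds of the guinea pig genome build cavPor3. The sGC group was 6 female juveniles of the Hartley strain whose mothers were injected with betamethasone at 1 mg/kg in 3 courses that began on gestational days 40, 50 and 60. The control group was 6 female juveniles whose mothers received saline. Hippocampus and whole blood were taken from the same 12 animals on postnatal day 14, 1 animal from each litter. Reduced representation bisulfite sequencing (RRBS) reads DNA next to MspI sites, so that CpG-rich sequence is favoured. Bisulfite turns an unmethylated cytosine into one read as thymine, and the methylation level is the percentage of reads still showing cytosine. The deposited values are the methylated reads and the coverage of each cytosine, added up across the 6 animals per group. There is therefore 1 pool of reads per group, and the spread between animals is not known for any value given here. A difference is the level of the sGC pool less that of the control pool, in percentage points.

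In mammalian DNA, methyl groups sit mainly on the cytosines of CpGs, and both strands of a CpG usually carry the same state because the maintenance methyltransferase copies it at replication. CpG-dense islands at promoters are mostly open (unmethylated), isolated CpGs are mostly methylated, and levels in between arise where cell types, cells or parental alleles differ. The hippocampus holds neurons, glia and the cells of its blood vessels, and it is rich in glucocorticoid receptors. In these bulk pools, a difference in the mixture of cells and a difference within the cells cannot be told apart.

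The pools had a median of 100 reads per cytosine with sGC exposure (quartiles 63 and 144) and 93 in controls (61 and 128). Over cytosines read in both tissues, the levels of both hippocampal pools were more alike (Pearson r = 0.988 across 2342490 cytosines) than those of the hippocampal and blood control pools (0.904). No annotation of cavPor3 was used here, so marker genes of the tissue were not examined. The correlation with the blood control pool was 0.920 for the sGC hippocampus and 0.904 for the control hippocampus, and with the blood sGC pool it was 0.907 and 0.888. These correlations are across cytosines that share animals and libraries.

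The hippocampus was slightly more methylated with sGC exposure. The mean level over the cytosines was 53.7% in the sGC pool and 52.6% in the control pool, a mean difference of 1.03 points and a median of 0.603. The level was higher with sGC exposure at 56.2% of the cytosines, lower at 43.4% and equal at 0.351%. Taken one by one, the 40 scaffolds holding most cytosines had mean differences from 0.608 to 1.33 with a median of 0.964, above 0 in 40 of 40. The scaffolds come from the same 2 pools and are not replicates. With every read given equal weight, the pools differed by more, 52.0% against 49.3%. That measure also moves with where the reads fell and is not a change of methylation alone. Placed by the control level of the other strand of the CpG, cytosines under 10% had 1.06 times as many sGC as control reads. Those in both classes from 70% up had 1.15 times as many. Gains of at least 10 points were found at 6.51% of the cytosines and losses of at least 10 points at 2.77%.

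The control pool had 30.9% of its cytosines under 10% methylation, 6.36% from 10 to under 30%, 13.9% from 30 to under 70%, 21.8% from 70 to under 90% and 27.1% at 90% or more. In the sGC pool these shares were 30.3%, 5.86%, 13.7%, 21.4% and 28.7%. The largest shift was therefore into the class of 90% or more.

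To follow the change by starting level, each cytosine was placed by the control level of the other strand of its CpG, which is read from other molecules. This was possible at 542743 CpGs (26.3%) with both strands at 20 or more reads, which lay in denser sequence (median of 8 other listed CpGs within 100 bp) than cytosines of CpGs read on 1 strand (median of 5). Their mean difference was 0.959 points, against 1.09 for the others. The other strand comes from the same animals, so that differences between animals are shared by both strands.

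CpGs of intermediate methylation gained the most. Where the other strand was from 30 to under 70% methylated in controls, the level was 55.3% with sGC exposure and 52.5% in controls, a mean difference of 2.79 points over 149377 cytosines. From 10 to under 30%, the mean difference was 2.40 points over 80494 cytosines (21.9% against 19.5%). It fell to 1.09 from 70 to under 90% (83.4% against 82.4%, 220427 cytosines). At the open CpGs, under 10%, it was 0.295 (2.59% against 2.30%, 360875 cytosines), and at 90% or more it was 0.310 (93.9% against 93.6%, 274313 cytosines).

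In bins of 5 points, the mean difference rose from 0.220 at 0 to 5% to a peak of 3.37 at 35 to 40% and fell again to 0.192 at 95% or more. The gain was seen on 40 of the 40 scaffolds with the most cytosines in every starting class. Over these scaffolds it ranged from 2.07 to 3.41 points at 30 to under 70% and from 0.147 to 0.557 at under 10%. Those ranges do not overlap, and neither do those of the class from 30 to under 70% and the class of 90% or more (0.0478 to 0.532). The class from 10 to under 30% ranged from 1.27 to 4.36 and overlapped with that from 30 to under 70%. As a share of the control level, the gain was 12.8% at the open CpGs and 5.31% at the intermediate ones, and as a share of the unmethylated fraction it was 0.302% and 5.86%. In the class of 90% or more, these shares were 0.332% and 4.83%.

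**Figure D1:**
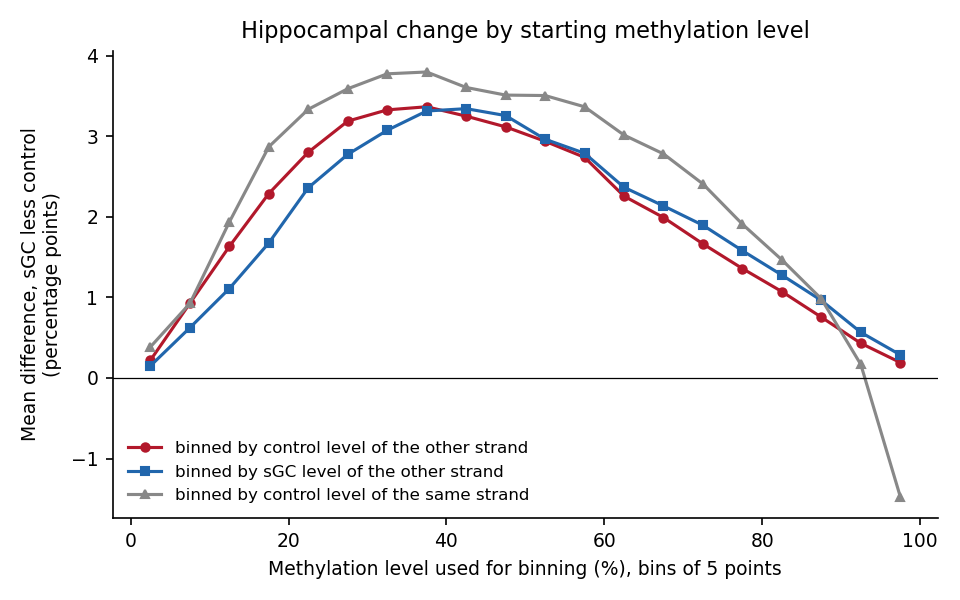
Mean difference (sGC less control, percentage points, vertical axis) in bins of 5 points of methylation level (horizontal axis), with cytosines placed by the control level of the other strand (red), the sGC level of the other strand (blue) or the control level of the same strand (grey). Both curves from the other strand stay above 0 and peak between 30 and 50%, whereas the grey curve falls below 0 at the top.

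The choice of the strand mattered at full methylation. Placed by the control level of the same strand, cytosines of 90% or more had a mean difference of -0.657 points, the opposite direction. In that arrangement the same control reads set both the class and the difference. Placed by the sGC level of the other strand, the 5 classes had mean differences of 0.201, 1.89, 2.83, 1.30 and 0.424, in order of level. The intermediate class was the highest in each of these arrangements by hippocampal level. Placed by the control level in blood it was not: the class of 70 to under 90% had 2.43 points and the intermediate class 1.65, and the class of 10 to under 30% had 0.226.

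The depth of the pools moved with the starting level. The sGC pool had 1.06 times as many reads as the control pool at cytosines under 10%, 1.09 times at 10 to under 30%, 1.13 times at 30 to under 70%, and 1.15 times in both classes above. The part of this in the result was not tested. By the reads of the shallower pool, the mean difference was 1.17 points at the 659302 cytosines with 20 to 56 reads and 1.08 at the 638625 with 126 or more, and the standard deviation of the difference across cytosines was 8.16 and 4.24 points.

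Local CpG density was counted as the number of other CpGs listed within 100 bp, with a median of 6 and a maximum of 43. In percentage points, the gain was larger in sparse sequence. As a share of the control level the order was the reverse, with 1.90% at 0 to 1 neighbours and 3.00% at 15 or more. As a share of the unmethylated fraction it was 5.52% and 0.589%. Cytosines with 0 to 1 neighbours differed by a mean of 1.41 points (75.8% against 74.4%, 288099 cytosines), those with 2 to 4 by 1.30, those with 5 to 9 by 1.09, those with 10 to 14 by 0.692 and those with 15 or more by 0.492 (16.9% against 16.4%, 339125 cytosines). Over the 40 scaffolds, the mean difference was from 0.866 to 1.72 at 0 to 1 neighbours and from -0.161 to 1.12 at 15 or more, where 38 of the 40 were above 0, so that the ranges overlap. The read ratio of sGC to control fell along the same classes, from 1.17 to 1.04.

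Density and starting level are bound together, since dense CpGs were mostly open. Within starting classes the mean difference also varied with density, but the control level varied too. It fell from 5.98% to 2.02% between the sparsest and the densest open CpGs, and from 23.9% to 17.3% in the class of 10 to under 30%. Over all densities, open CpGs had mean differences of 0.926 points at 5 to 10% and 0.220 at 0 to 5%, so that density and level were not separated within these classes. From 10 to under 30%, the mean difference fell from 3.74 points at 0 to 1 neighbours (1343 cytosines) through 3.33, 2.85 and 2.03 to 1.27 at 15 or more (17698 cytosines). From 30 to under 70%, it was 2.90, 2.93 and 2.97 up to 9 neighbours, 2.50 at 10 to 14 and 1.96 at 15 or more. At open CpGs it fell from 0.996 (1049 cytosines) to 0.233 (136775 cytosines). In the class of 70 to under 90% it went from 1.34 to 1.00, and at 90% or more from 0.523 to 0.300, with 0.306 at 2 to 4 neighbours.

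**Figure D2:**
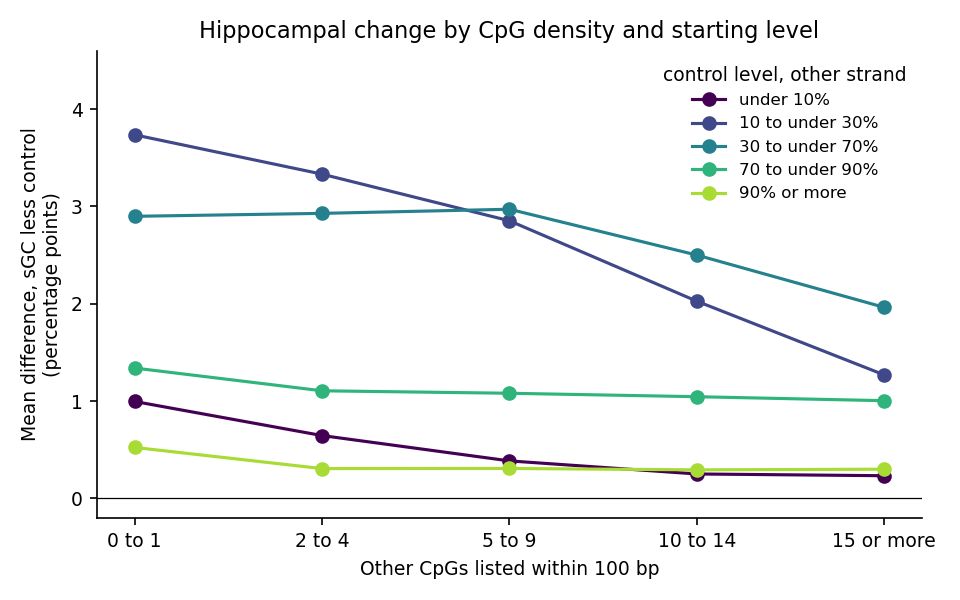
Mean difference (sGC less control, percentage points) by the number of other CpGs listed within 100 bp, with a line for each class of control level on the other strand. The lines of 10 to under 30% and 30 to under 70% lie above the others at every density and are lowest at 15 or more neighbours, and the line of 90% or more changes little beyond 2 neighbours.

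For each cytosine, the reads of the pools were set against each other with Fisher's exact test (two-sided), and p was adjusted by Benjamini-Hochberg over all 2609421 cytosines. A call needed an adjusted p under 0.05 together with a change of 5 points or more. The test compares pools of reads, not animals. It called 3337 cytosines (0.128%). Hypermethylated calls numbered 2198 (0.0842%) and changed by a median of 23.9 points, and hypomethylated calls numbered 1139 (0.0436%) with a median of -24.7. Division of the chi-square statistic by its inflation factor of 1.77 left 587 calls, 255 hypermethylated and 332 hypomethylated, so that the majority turned to the other direction. The share called rose with depth, from 0.0403% at 20 to 56 reads to 0.269% at 126 or more.

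Calls concentrated where levels were intermediate, and their direction differed with the starting level. A call needs a change of at least 5 points. In controls the mean level was 2.30% at open cytosines, which leaves little room to fall by that much. At 90% or more it was 93.6%, which leaves little room to rise. Floor and ceiling therefore limit calls at both ends, and their part in the direction was not tested. Hypermethylated calls made up 0.349% of the cytosines at 10 to under 30% and 0.256% at 30 to under 70%, against 0.0604% at under 10% and 0.0197% at 90% or more. Hypomethylated calls made up 0.129% and 0.0924% of the former classes, 0.00554% of the open cytosines and 0.0386% of those at 90% or more. At open CpGs 218 calls were higher and 20 lower. From 70 to under 90% the numbers were 113 and 131, and at 90% or more they were 54 and 106, although the mean difference was above 0 in both classes. By density, the share called in either direction was 0.0812% at 0 to 1 neighbours, 0.147% at 2 to 4, 0.148% at 5 to 9, 0.102% at 10 to 14 and 0.115% at 15 or more.

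In the dense sequence of 15 or more neighbours, cytosines of 10 to under 30% were called lower more often (56) than higher (33). With cytosines of over 500 reads in a pool left out, 2 were called lower and 30 higher. The cytosines called lower at this density had a median of 2814.5 reads on the other strand, far above the typical depth. All other classes with at least 50 calls kept the direction of their majority without the deep cytosines.

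The other strand gave a second reading of each called cytosine from reads that did not enter the call. Both strands come from the same animals, so that differences between animals recur on the other strand. Of 1048 hypermethylated calls with a member on the other strand, 933 (89.0%) were also higher there, and the mean difference was 24.3 points on the called strand and 12.9 on the other. Of 499 hypomethylated calls, 434 (87.0%) were lower on the other strand, with means of -23.8 and -14.0. For cytosines that were not called, the other strand was higher at 58.5% of those that rose and lower at 46.4% of those that fell. Both strands were called at 204 CpGs, in the same direction at each of them.

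Neither strand was equal between the pools at 539442 CpGs, and 53.4% of these had both strands higher or both lower. Beside this stand the 56.2% of all cytosines that were higher and the 43.4% that were lower. The share for unrelated strands was not computed. The covariance of the strand differences, which counting error does not enter, corresponds to a shared spread of 2.22 points, against a standard deviation of 5.45 points for a single strand. By density, this shared spread was 1.97 points at 0 to 1 neighbours, 2.37 at both 2 to 4 and 5 to 9, 2.05 at 10 to 14 and 1.80 at 15 or more. Both strands gained at least 10 points at 6311 CpGs (1.16%) and both lost at least 10 points at 1488 (0.274%). At 2386 CpGs the strands moved by 10 points or more in opposite directions.

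The change was shared by neighbouring CpGs. Among cytosines with at least 50 reads in both pools, the correlation between the differences on both strands of a CpG was 0.211 over 432169 CpGs. Between CpGs on opposite strands it was 0.171 at 2 to 10 bp, 0.162 at 26 to 50 bp, 0.156 at 51 to 100 bp, 0.125 beyond 100 and up to 200 bp, 0.0844 up to 500 bp and 0.0169 between 1000 and 5000 bp. On the same strand, where neighbours are often on the same read, it was 0.419 at 2 to 10 bp and was close to the opposite strand beyond 100 bp (0.129 up to 200 bp). The shared spread on opposite strands was 1.76 points at 2 to 10 bp and 0.682 between 1000 and 5000 bp. These correlations are descriptions across cytosines of the same pools and are lowered by counting error, and at 100 or more reads the value for opposite strands at 26 to 50 bp was 0.247.

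**Figure D3:**
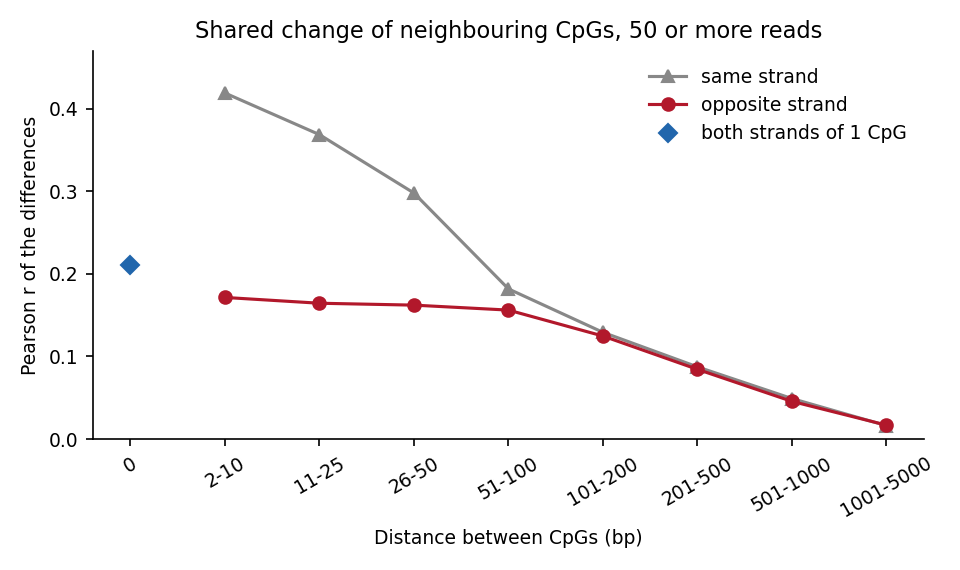
Pearson correlation of the differences of CpGs (vertical axis) by the distance between them in bp (horizontal axis), for cytosines with at least 50 reads in both pools, on the same strand (grey), on opposite strands (red) and on both strands of a single CpG (blue). The red line is nearly level to 100 bp and then falls, and the grey line is well above it within 100 bp and close to it beyond.

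Neighbouring cytosines no more than 100 bp apart were joined into regions, and 57836 regions had at least 5 cytosines on each strand, with a median length of 258 bp. Summed reads of the plus strand were tested by Fisher's exact test with adjustment over the regions, and 4086 (7.06%) were called. One read often covers several of the cytosines, so that the readings depend on each other and this test gives too many calls. Of the called regions, 3539 were hypermethylated and 547 hypomethylated. On the minus strand, whose reads had no part in the call, 3079 (87.0%) of the hypermethylated regions were also higher and 419 (76.6%) of the hypomethylated ones were also lower. The share over all regions was not computed, and 56.2% of all cytosines were higher with sGC exposure and 43.4% lower. Both strands come from the same animals. The median difference of the hypermethylated regions was 7.96 points on the plus and 4.51 on the minus strand, and that of the hypomethylated regions was -7.35 and -2.75.

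Regions of intermediate methylation were the most often called. A region call also needed a change of at least 5 points. That leaves little room for losses at under 10% and for gains at 90% or more. The part of this in the shares was not tested. By the control level of the minus strand, 22.0% of the regions from 30 to under 70% and 19.7% of those from 10 to under 30% were hypermethylated on the plus strand, against 0.719% at under 10%, 5.73% at 70 to under 90% and 0.724% at 90% or more. Hypomethylated regions made up 2.15% and 1.13% of the former classes and 1.83% of those from 70 to under 90%. By mean density, hypermethylated calls fell from 7.51% of the regions at 2 to 4 neighbours to 3.79% at 15 or more.

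The regions that changed most on the plus strand carried no gene name in the tables used here. The 10 with the largest gain had a plus-strand difference from 22.7 to 28.5 points. On the minus strand 8 of them were also higher, 6 of these with a Fisher p below 0.05. The 4 described in full were picked after both strands were seen and had the largest minus-strand gains of the 10, so no p is given for them. The minus strand of the other 6 differed by 15.7, 6.78, 5.68, 1.34, -4.27 and -4.57 points. Positions are on cavPor3, as the files give them, and percentages of regions carry 95% Wilson intervals. The intervals cover counting error only and take each reading as independent. Because a read often covers several of the cytosines, they are too narrow.

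The largest plus-strand gain was on scaffold DS562856.1 from 50126608 to 50126685, where all 12 cytosines were higher. These cytosines were shallow, with 21 to 66 reads in a pool, against medians of 100 (sGC) and 93 (control) over all cytosines. Ranking by the size of the difference favours regions of few reads. The plus strand went from 48.4% (41.5 to 55.5) in controls to 77.0% (68.9 to 83.5) and the minus strand from 40.4% to 66.0% (25.6 points).

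On scaffold DS562880.1 from 27836923 to 27837152, a dense stretch of 22 CpGs, 24 of 26 cytosines were higher with sGC exposure. The plus strand had 47.02% methylated readings (interval 43.6 to 50.5) with sGC exposure and 23.6% (21.0 to 26.4) in controls, and the minus strand had 63.2% (60.01 to 66.2) and 33.0% (29.98 to 36.2), a difference of 30.2 points. Blood controls were at 33.7% in this region.

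On scaffold DS563033.1 from 962248 to 962485, all 13 cytosines were higher. The plus strand went from 59.0% (55.7 to 62.2) in controls to 83.5% (81.2 to 85.5) with sGC exposure, and the minus strand from 56.0% to 73.5% (17.5 points). On scaffold DS563030.1 from 387060 to 387181, the minus strand went from 55.8% (52.0 to 59.5) to 75.6% (72.5 to 78.4), a difference of 19.8 points, and 14 of 15 cytosines were higher. Blood controls were at 81.8% and 85.0% in these regions, above the hippocampal controls on both strands.

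The 10 regions with the largest loss had plus-strand differences from -15.1 to -22.1 points. The minus strand was also lower in 6 of them, 4 of these with a Fisher p below 0.05, and higher in the other 4. Both regions described here were likewise picked after their minus strand was seen, and had the largest minus-strand losses of the 10. The minus strand of the other 8 differed by -9.87 to 5.84 points. On scaffold DS563026.1 from 756604 to 756679, all 10 cytosines were lower, the plus strand at 55.6% (51.2 to 59.9) against 74.5% (70.1 to 78.4) and the minus strand at 58.8% against 74.3% (difference -15.6). On scaffold DS562945.1 from 1103848 to 1103964, the minus strand was at 37.9% against 52.5% (difference -14.6). Blood controls were at 24.97% and 16.2% in these regions. Over the 10 regions of loss, blood controls were below the hippocampal controls of both strands in 5 and above them in 1, and over the 9 regions of gain with a blood level they were above in 9. On DS562880.1 this was by 33.7% against 33.0% on the minus strand. The control reads of the plus strand entered both the choice of regions and this comparison. No share over all regions is given beside these counts, so they are a description only.

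The hippocampal change differed with the level of the same cytosine in blood, though not steadily along it. The cytosines with both strands and with 20 or more reads in all 4 pools were split by the control level in blood. Among open hippocampal CpGs, the mean difference was 0.130 points where blood was also under 10% (251953 cytosines), 1.23 where blood was at 10 to under 30%, 3.67 at 30 to under 70% and 5.75 at 70 to under 90% (1894 cytosines), but 1.97 at 90% or more (485 cytosines, whose own strand was at 25.5% in hippocampal controls). Among hippocampal CpGs of 70 to under 90%, it was -2.31 where blood was under 10% (1713 cytosines), -4.37 where blood was at 10 to under 30% (4494 cytosines), -0.830 at 30 to under 70% and 1.499 at 90% or more. In the intermediate class it ran from -1.53 where blood was under 10% to 4.25 where blood was at 70 to under 90%, and was 3.85 at 90% or more.

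Where blood controls were more than 10 points above the other strand of the hippocampal controls, the intermediate class gained 4.06 points, and where they were more than 10 points below, it had a mean difference of -1.06. The same hippocampal control animals enter both the gap and the change, and the use of the other strand removes shared counting error only. With blood within 10 points, a mean gain was left in each starting class, of 0.153 points at under 10%, 0.711 at 10 to under 30%, 1.59 at 30 to under 70%, 1.13 at 70 to under 90% and 0.379 at 90% or more. By density, the mean difference where blood was more than 10 points above was 3.34 points at 0 to 1 neighbours and 3.01 at 15 or more, and the share of such cytosines fell from 32.1% to 13.0%. Where blood was within 10 points, the mean difference fell from 0.944 to 0.258 over the same classes. Of the hypermethylated calls, 61.2% lay at cytosines where blood was more than 10 points above and 8.74% where it was more than 10 points below, and of the hypomethylated calls 10.8% and 37.3%, against 22.9% and 7.62% of the cytosines not called. These groups also differed in starting level, with a median control level on the other strand of 32.0%, 66.8% and 67.2%, in that order. Within classes the contrast varied. Hypermethylated calls in the intermediate class numbered 261 above, 96 within and 24 below, of 95461, 27298 and 23077 cytosines. From 70 to under 90% they were 21, 62 and 29, of 69462, 120936 and 24781. At open CpGs they were 157 above and 60 within, of 24338 and 261749. The part of blood cells in the hippocampal differences was not tested.

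**Figure D4:**
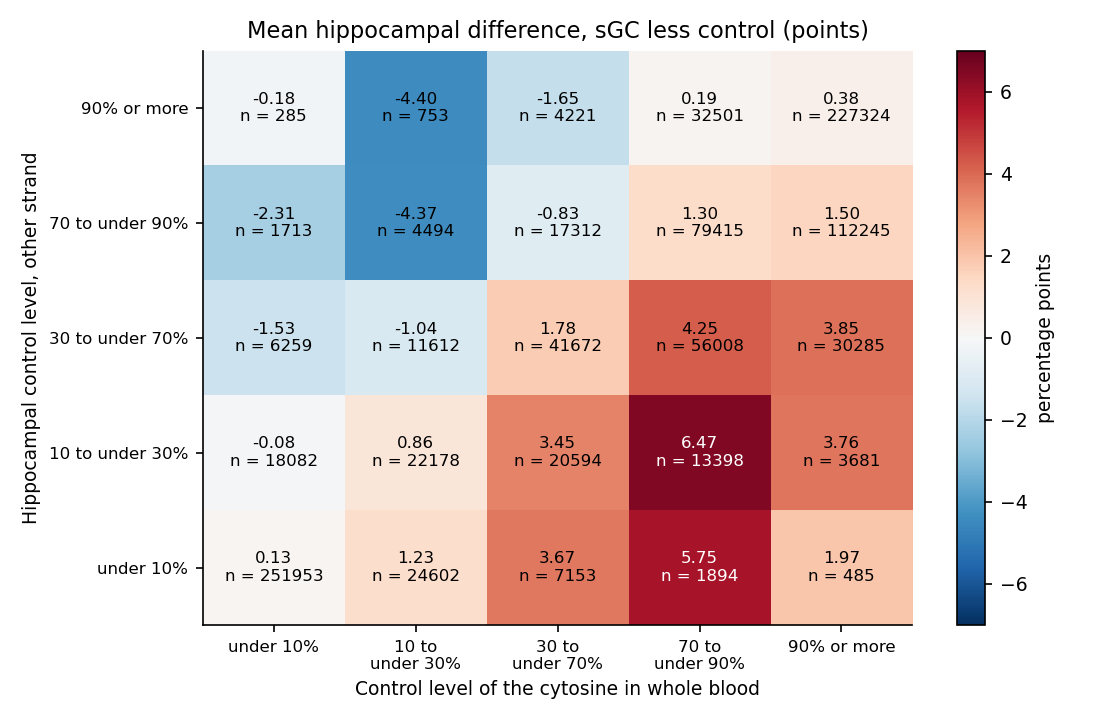
Mean hippocampal difference (sGC less control, percentage points, colour and upper number) by the control level of the cytosine in whole blood (columns) and of the other strand in the hippocampus (rows), with n the number of cytosines. Gains fill the lower right, where blood is the more methylated, up to 6.47 points, and losses the upper left, down to -4.40 points.

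In whole blood itself, computed in the same way, the mean differences by starting level were -0.163 points at under 10%, -0.966 at 10 to under 30%, 0.458 at 30 to under 70%, 1.75 at 70 to under 90% and 0.676 at 90% or more. In the hippocampus the corresponding values were 0.295, 2.40, 2.79, 1.09 and 0.310. The classes do not hold the same cytosines in both tissues. From 30 to under 70% there were 92533 in blood and 149377 in the hippocampus. The difference between the tissues was not tested, since each has 1 pool per group.

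Gene names come from the study's tables of differentially methylated cytosines, of which that for the hippocampus was incomplete in the copy used here, and were paired with 562 cytosines of 111 genes. Those cytosines were chosen by the study on the same contrast, so that their changes are described without a test. All cytosines with 20 or more reads between the first and the last cytosine of a gene were taken on both strands, and 39 loci of 36 genes held at least 8 of them. Of these, 34 gained methylation, by a mean of 3.21 to 15.5 points, and 5 lost it. Both strands moved in the same direction at 38 loci. In total, 35 of 740 cytosines in these loci were called, against 0.128% of all cytosines compared, a contrast that the choice of the loci already used. The 26 loci with a control level under 30% all gained, and of the 7 at 70% or more 2 gained and 5 lost.

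The largest mean gain was at *TGFBRAP1*, which encodes a partner of transforming growth factor beta receptors, on scaffold DS562879.1 from 8013677 to 8013872. There the level was 53.5% with sGC exposure and 38.0% in controls, and all 10 cytosines were higher, by 5.73 to 24.8 points. The next largest was *GLI2*, a transcription factor of the Hedgehog pathway, with a locus (DS562858.1, 61777722 to 61777882) at 45.9% against 31.0%, and a second one at 26.8% against 16.8% with 41 of 42 cytosines higher. The loci of *ROR1*, a receptor for Wnt proteins, were at 51.5% against 38.4% and at 53.3% against 42.6%.

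*SORBS3*, which encodes the adhesion protein vinexin, was at 28.9% against 15.04%, with all 16 cytosines higher. *MDGA1*, whose product regulates synapse formation at the cell surface, was at 30.6% against 17.5%, and *NRSN2*, a neuronal vesicle membrane protein, at 37.8% against 25.2%. *FAM222A* was at 30.9% against 17.2%.

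*SLCO2A1*, a prostaglandin transporter, was at 34.1% against 21.5%. *SNX20*, a sorting nexin of vesicle traffic, was at 24.3% against 12.0%. *NR4A1*, an orphan nuclear receptor induced by neuronal activity, was at 28.2% against 16.5%, with all 13 cytosines higher. *REM1*, a small GTPase that restrains calcium channels, began from a high level and was at 85.5% against 73.1% over 31 cytosines, all higher.

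Some loci that were almost open in controls gained as well. *AGAP2*, a GTPase of phosphoinositide 3-kinase signalling, was at 14.6% against 3.18%, with all 22 cytosines higher and both strands differing by 11.4 points. *GFI1*, a zinc finger repressor of blood cell development, was at 8.29% against 1.71% over 84 cytosines, of which 71 were higher, and blood controls were at 71.1% there. *NFIA*, a transcription factor of gliogenesis, was at 15.3% against 7.16% in a locus of 35 cytosines and at 19.9% against 11.2% in a locus of 19. From a higher level, *CAMTA1*, a calmodulin-binding transcription activator, was at 37.0% against 26.1%. *ZFPM2*, also to be named for its number of cytosines, had no locus with at least 8.

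The 5 loci that lost methylation were all above 70% in controls. *HM13*, a signal peptide peptidase gene in an imprinted region (DS562863.1, 1475809 to 1476163), was at 59.1% against 73.0%, and all 32 cytosines were lower, with a mean of -13.8 points on the plus and -14.0 on the minus strand. *DHRS3*, which encodes a retinaldehyde reductase, was at 65.2% against 77.4%, with 11 of 13 lower. *FXYD6*, a regulator of the sodium pump, was at 79.1% against 87.6%, with all 10 lower. *USP3*, a histone deubiquitinase, was at 80.1% against 86.7%, and *COL4A1*, a basement membrane collagen, was at 92.8% against 95.5%.

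The direction at these loci differed with the level in blood. The same hippocampal control reads enter both the gap to blood and the change. The loci were also chosen by the study on this contrast, and 34 of the 39 gained. The split by blood level is therefore a description only. Blood controls were at least 10 points above hippocampal controls at 33 loci, and all 33 gained. They were at least 10 points below at 4 loci, of which *DHRS3*, *FXYD6* and *USP3* lost and *LOXL2*, a lysyl oxidase gene, gained a mean of 3.33 points with its strands in opposite directions. They were within 10 points at *HM13* and *COL4A1*, which both lost. At *HM13* blood controls were at 73.7%, against 73.0% in the hippocampus, and blood was also lower with sGC exposure, at 60.3%.

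**Figure D5:**
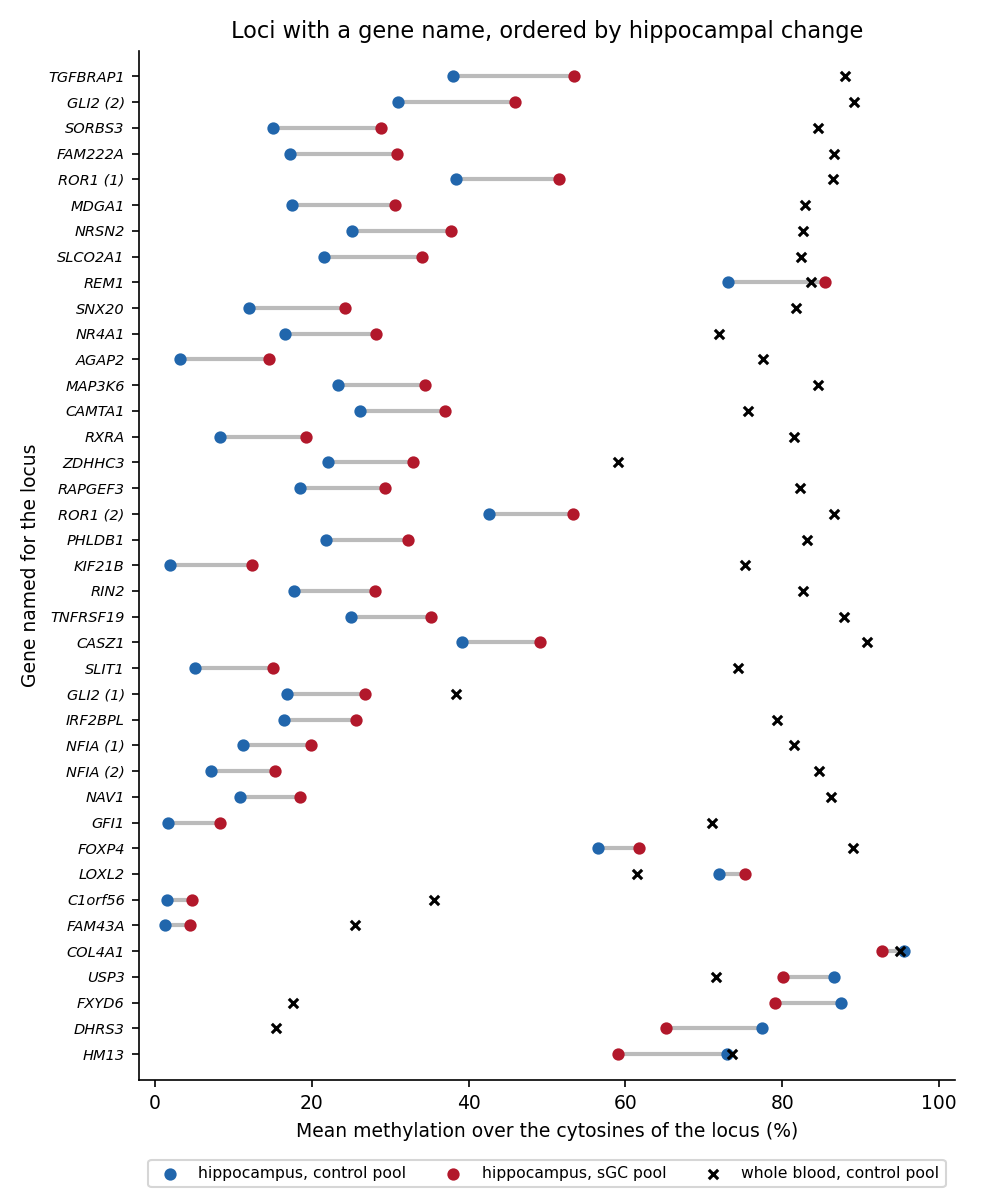
Mean methylation (%) over the cytosines of each of 39 loci with a gene name, in the control pool (blue) and the sGC pool (red) of the hippocampus and in the control pool of whole blood (crosses), ordered by the hippocampal change, with loci of the same gene numbered by position. Red lies to the right of blue at 34 loci, and the 5 at the bottom are the losses.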

How the data were processed

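RRBS was performed on hippocampus and blood of 12 female guinea pigs. The authors trimmed reads with Trim Galore and a NuGEN script, aligned them with Bismark 0.16.0 and sorted them with SAMtools 1.7 (versions per the labels), on cavPor3. Their test of differential methylation, in MethPipe, had batch as a covariate. The deposited counts of methylated reads and the deposited coverage (all reads over a cytosine) are sums across the 6 animals per group, not normalized. The smallest total was 10. A deposited FDR column was not used. Bisulfite conversion, batches and animals cannot be examined in pooled counts.

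Levels, differences, Fisher's exact tests with Benjamini-Hochberg adjustment, classes and regions were computed in Python 3.11.15 (with pandas 2.3.3, numba 0.67.0, numpy 2.4.6, scipy 1.17.1 and matplotlib 3.10.9). Fisher's exact test was coded with numba and compared with that of scipy, and the functions were tested on simulated data. Density counted CpGs listed on either strand, so it follows coverage as well as sequence. Neighbours were compared up to 160 cytosines apart. Named were the 10 regions of largest gain and of largest loss on the plus strand (those described were chosen among them after their values were seen), the 12 gene loci of largest gain, up to 12 of largest loss, and 8 genes with many named cytosines. A locus was split where named cytosines were over 2000 bp apart. Planned promoter lists were not used here, as they needed an annotation of the build. Members and lists were chosen with earlier results of these data known. Alternatives changed the minimum reads, level, density window, test and region rule.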

Additional observations from a re-analysis of the deposited data

How the results depend on the processing

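No paired analysis was possible because the deposited columns are sums over animals, which also prevents leaving out an animal. At minimums of 10, 50 and 100 reads, the mean difference was 1.07, 0.991 and 1.05 points, that of the intermediate class (30 to under 70%) 2.77, 2.85 and 3.36, and at 10 and 50 reads the excess of the sparsest over the densest class (0.920 points as reported) was 0.894 and 0.977 and the share of CpGs with both strands higher or both lower, among those where both moved, 53.3% and 53.8%. The mean difference was 2.66 with read-weighted levels, which also move with where the reads fell, and 0.959 for CpGs with both strands. The intermediate class had 3.36 by the level of the same strand, 2.83 by the sGC level and 2.86 by the mean level of the other strand, and 1.65 by the level in blood, where the class of 70 to under 90% was higher at 2.43 and that of 10 to under 30% fell to 0.226, and cytosines of 90% or more turned to -0.657 by the level of the same strand. Density windows of 50 and 250 bp gave 0.732 and 0.729, this share was 54.5% for strands of like control level, and neighbours at 100 or more reads correlated at 0.247 against 0.162. Inflation-corrected tests left 587 calls. The other counts, of called cytosines (3055 to 4586) and of called regions (3279 to 4295), stayed within 1.5 times those reported. After the data were seen, members with at most 500 reads gave a mean difference of 1.04 and 3036 calls, and cytosines with blood within 10 points gave 0.486 overall and 1.59 in the intermediate class. Depth limits single cytosines, and pooling leaves the spread between animals unknown.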

Other observations

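Cytosines with more than 500 reads in a pool were few (7502 of the cytosines compared) but held 6.13% of the reads of both pools and 301 of the 3337 calls. Apart from the values without them given above, they were not examined further. Among calls with a member on the other strand, that strand was called as well for 162 of 499 hypomethylated and 246 of 1048 hypermethylated cytosines. The difference between these shares was not tested.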
